A study of Mus musculus with 2 samples.

Results

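The Mir99, Mir100 and Mir125 genes of the mouse lie in 3 clusters of microRNA genes, on chromosomes 16, 17 and 9, and each cluster also holds a let-7 gene. The account covers 7 of the 1973 microRNA genes listed in the count tables. They are Mir99a and Mir125b-2 on chromosome 16, Mir99b, Mir125a and the Mirlet7e locus on chromosome 17, and Mir100 and Mir125b-1 on chromosome 9. They were chosen by gene identity, through their Ensembl identifiers. Mirlet7e is not among the listed identifiers and was read as the reads opposite to Gm25927, a predicted gene annotated over the same bases on the other strand. Which column of the tables holds the own strand was read from the values, as the columns carry no names. Small RNA was sequenced from hearts of B6NCrl mouse embryos at embryonic day 10.5, healthy and of pooled sex, with no treatment or allele named. The 2 libraries form 1 group, and each came from its own pool of hearts, with 51 embryos in replicate 2 and 69 in replicate 1. With 1 group, comparisons were possible between genes of the heart and between the pools, and not between conditions.

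The clusters are an old arrangement: the fruit fly carries miR-100, let-7 and miR-125 in a single transcript, and lin-4 of the nematode, the founding microRNA, is of the miR-125 family. let-7 and lin-4 time developmental stages in the nematode. In mammals mature let-7 accumulates as cells differentiate, and LIN28 blocks the maturation of its precursors in embryonic cells. The miR-99 and miR-100 microRNAs are known to restrain mTOR signalling, and in zebrafish miR-99, miR-100 and let-7 hold back the return of heart muscle cells to a dividing state during regeneration. A microRNA recognises its targets mainly by its seed, bases 2 to 8 from the 5′ end, so genes with the same seed share many predicted targets.

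The mature 5p sequences from RefSeq (GRCm38.p6) show which members can be told apart by a read and which share a seed. The seed is in capitals, 5′ to 3′.
miR-99a-5p (Mir99a): aACCCGUAgauccgaucuugug
miR-100-5p (Mir100): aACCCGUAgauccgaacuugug
miR-99b-5p (Mir99b): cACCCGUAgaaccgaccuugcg
miR-125b-5p (Mir125b-1 and Mir125b-2): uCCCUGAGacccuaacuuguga
miR-125a-5p (Mir125a): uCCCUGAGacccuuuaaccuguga
let-7e-5p (Mirlet7e): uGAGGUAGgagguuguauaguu
let-7a-5p (Mirlet7a-2 and another gene): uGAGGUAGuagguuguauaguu
let-7c-5p (Mirlet7c-1 and another gene): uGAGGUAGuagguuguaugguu

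The members fell into 3 seed groups that cut across the clusters. miR-99a-5p and miR-100-5p were identical except for U16A, counted from 1 at the 5′ end with the base of miR-99a-5p given before the position. miR-99b-5p differed from miR-99a-5p at 4 of 22 bases, A1C, U11A, U16C and U21C, all outside the seed. let-7e-5p differed from let-7a-5p at 1 base, U9G, directly after the seed. Among 2202 annotated microRNA hairpins searched, miR-99a-5p, miR-99b-5p, miR-100-5p, miR-125a-5p and let-7e-5p each matched only their own hairpin exactly.

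miR-125b-5p is encoded identically by Mir125b-1 and Mir125b-2, whose hairpins share a run of 24 bases. Reads that mapped to more than 1 place were tallied apart from genes, 23.5% of all reads in replicate 2 and 23.3% in replicate 1. Reads of miR-125b-5p here and below are those of its exact sequence, which match both genes and by sequence fall in that tally. The counts are not split by arm or position, so longer reads reaching past the shared run may have been assigned. The Mir125b-1 and Mir125b-2 counts are therefore lower limits for those genes and do not measure miR-125b-5p. The same holds for the let-7 genes of the other clusters, since let-7a-5p and let-7c-5p each have 1 further exact copy. The 3p arms of the Mir125b genes each matched only their own hairpin exactly.
miR-125b-1-3p (Mir125b-1): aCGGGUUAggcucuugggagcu
miR-125b-2-3p (Mir125b-2): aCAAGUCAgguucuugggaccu

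The clusters differ in their layout. On chromosome 17 (mm10, plus strand) Mir99b lies at 17830188 to 17830257, Mirlet7e at 17830352 to 17830444 and Mir125a at 17830812 to 17830879, a span of 692 bases. This cluster lies in Spaca6, with Mir99b and Mirlet7e in an intron and Mir125a over an annotated exon. Gm25927 lies at 17830343 to 17830459 on the minus strand and encloses Mirlet7e. On chromosome 16, plus strand, Mir99a (77598936 to 77599000) lies 656 bases before Mirlet7c-1, and Mir125b-2 (77646273 to 77646343) follows 46522 bases later. These genes lie in introns of Mir99ahg, a long noncoding RNA host gene. On chromosome 9, plus strand, Mir100 (41531425 to 41531504) lies 5211 bases before Mirlet7a-2, and Mir125b-1 (41581926 to 41582002) a further 45114 bases on, in introns of 3110039I08Rik, which RefSeq names Mir100hg.

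The libraries held 4789068 own-strand gene counts in replicate 2 and 4163656 in replicate 1. Levels are given as CPM, these counts scaled to a common total, per hairpin with both arms together, and each read stands for a mature strand, so counts were not divided by length. A single count was worth 0.209 CPM in replicate 2 and 0.240 CPM in replicate 1. The heart muscle markers Mir208a, Mir208b and Mir499 were present in each library and summed to 69047 CPM in replicate 2 and 34740 CPM in replicate 1. Marker genes of other tissues were also counted. The 6 Hox-cluster genes, known from the embryonic trunk, summed to 2051 CPM in replicate 2 and 17890 CPM in replicate 1. The 7 epithelial genes summed to 2089 and 7068 CPM, and the liver gene Mir122 had 175 and 3078 CPM, in the same order of libraries. Of 5 listed neural Mir9 and Mir124 genes 4 had no count, but all 5 hairpins share a run of 20 or more bases with another hairpin, so reads within the shared run would not be assigned to them. In a whole tissue, fewer cells of a type and less RNA per cell cannot be told apart.

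The summed counts of the 7 members equalled 6.51% ± 0.254 of the own-strand gene total (SD, n = 2). The sum includes the opposite-strand count of Gm25927, which is not part of that total. By library the sum was 6.33% of the total in replicate 2 and 6.69% in replicate 1. Most of this came from the genes of the miR-99 and miR-100 seed. Mir99a, the leading member, had 174596 counts (36457 CPM) in replicate 2 and 147382 counts (35397 CPM) in replicate 1. It ranked 7th and 6th among all listed genes in these libraries, with a mean of 35927 ± 749 CPM (SD, n = 2). The listed genes nearest to it in level, by distance in log2(CPM + 1) over the 2 libraries, were Mir26b at 0.33 and Mir17 at 0.57.

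Mir99b, the chromosome 17 paralog, had 16139 CPM in replicate 2 and 17757 CPM in replicate 1, with a mean of 16948 ± 1145 CPM. Mir100, the chromosome 9 paralog, had 4178 CPM in replicate 2 and 6995 CPM in replicate 1, with a mean of 5586 ± 1992 CPM. No pair among the 3 paralogs overlapped between libraries, and their order was the same in each. Mir99a exceeded Mir99b 2.26-fold in replicate 2 and 1.99-fold in replicate 1, and it exceeded Mir100 8.73-fold and 5.06-fold. The nearest genes in level were Mir130a for Mir99b, at a distance of 0.056, and Mir541 for Mir100, at 0.026.

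Of the miR-125 genes, Mir125a had the highest counted level, 3565 CPM in replicate 2 and 3845 CPM in replicate 1 (mean 3705 ± 198). Mir125b-2 had 1880 counts (393 CPM) in replicate 2 and 1539 counts (370 CPM) in replicate 1. Mir125b-1 had 1542 counts (322 CPM) in replicate 2 and 2639 counts (634 CPM) in replicate 1. The Mir125b genes overlapped in level and changed places between the libraries, so no order can be given between them. The larger count of Mir125a cannot be read as more miR-125a than miR-125b. Reads of the exact miR-125b-5p sequence match both Mir125b genes and so by sequence were assigned to neither.

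The Mirlet7e locus was counted although the gene is not listed. Gm25927 had 10730 opposite-strand counts (2241 CPM) in replicate 2 and 7849 (1885 CPM) in replicate 1, a mean of 2063 ± 251 CPM on the scale of the own-strand totals. On its own strand Gm25927 had 0 counts in each library, which allows up to 3 counts, or 0.626 CPM in replicate 2 and 0.721 CPM in replicate 1. The other 6 members had at most 1 opposite-strand count. The table gives reads over the 117 bases of Gm25927 and does not place them within Mirlet7e. The level of the Mirlet7e locus lay between Mir125a and the assigned reads of the Mir125b genes, without overlap with either side. As the Mir125b levels are lower limits, this places the locus against their assigned reads only. The let-7 genes of the other clusters had far fewer assigned reads: Mirlet7c-1 had 165 counts in replicate 2 and 96 in replicate 1, and Mirlet7a-2 had 103 and 49. As these have exact copies elsewhere and let-7e-5p has none, the 3 let-7 genes cannot be ranked from these counts.

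**Figure D1:**
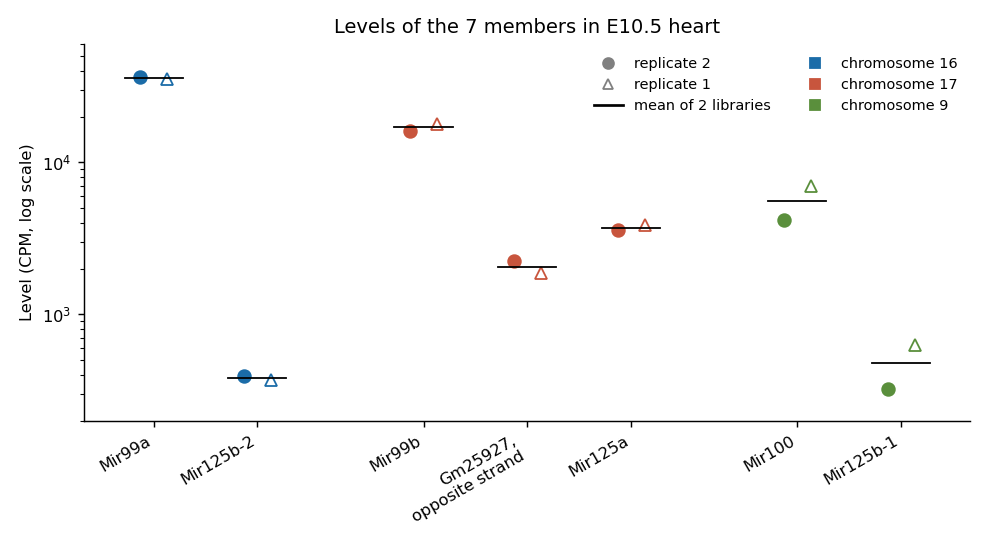
Level of each of the 7 members in CPM of own-strand gene counts (log scale), grouped by cluster, with filled circles for replicate 2, open triangles for replicate 1 and lines for the mean. Mir99a sits at 36457 and 35397 CPM, while the chromosome 9 genes Mir100 and Mir125b-1 show the widest gaps between the libraries.

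In order of mean level the members ran Mir99a, Mir99b, Mir100, Mir125a, the Mirlet7e locus, Mir125b-1 and Mir125b-2. The places of the Mir125b genes are those of their assigned reads and so lower limits. Neighbours in this order did not overlap between libraries, except Mir125b-1 and Mir125b-2. The closest of the separate neighbours were Mir100 and Mir125a, whose log2 ratio of 0.55 ± 0.45 (SD, n = 2) came from 0.23 in replicate 2 and 0.86 in replicate 1. With 2 libraries an exact sign-flip test cannot go below p = 0.5, so no ratio between genes was tested. Their 95% exact binomial intervals cover counting error only, and how far library preparation differs between sequences was not tested.

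Compared as clusters, the counted members on chromosome 16 summed to 36308 ± 766 CPM, those on chromosome 17 to 22716 ± 1091 CPM and those on chromosome 9 to 6064 ± 2212 CPM (SD, n = 2). By library, the chromosome 16 sum was 36850 CPM in replicate 2 and 35767 CPM in replicate 1. The chromosome 17 sum was 21944 and 23488 CPM, and the chromosome 9 sum 4500 and 7628 CPM. The order was the same in each library and no sums overlapped. Of the members' counts, the chromosome 16 cluster held 55.8% ± 3.35, the chromosome 17 cluster 34.9% ± 0.316 and the chromosome 9 cluster 9.26% ± 3.04.

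The gap to chromosome 9 differed most between the pools. The chromosome 16 sum exceeded the chromosome 17 sum 1.68-fold in replicate 2 (log2 0.75, exact 95% bounds 0.74 and 0.76) and 1.52-fold in replicate 1 (0.61, 0.60 to 0.62). It exceeded the chromosome 9 sum 8.19-fold in replicate 2 (log2 3.03, 3.01 to 3.05) and 4.69-fold in replicate 1 (2.23, 2.21 to 2.25). The chromosome 17 sum exceeded the chromosome 9 sum 4.88-fold in replicate 2 and 3.08-fold in replicate 1. These ratios need no scaling between libraries, and each differed between the pools beyond counting error. The chromosome 16 and 9 sums leave out reads of miR-125b-5p, let-7a-5p and let-7c-5p, whereas every 5p sequence of the chromosome 17 cluster matched a single hairpin.

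Within each cluster the miR-99 or miR-100 gene dominated the counts assigned to the members. On chromosomes 16 and 9 reads of miR-125b-5p were not assigned and the let-7 genes are not members. The shares of Mir99a and Mir100 there are therefore upper limits. Mir99a made up 98.93% of the chromosome 16 counts in replicate 2 and 98.97% in replicate 1. Mir100 made up 92.8% of the chromosome 9 counts in replicate 2 and 91.7% in replicate 1. On chromosome 17 the share of Mir99b was 73.5% in replicate 2 (73.3 to 73.8 by the exact 95% interval) and 75.6% in replicate 1 (75.3 to 75.9). Mir125a held 16.2% (16.02 to 16.47) and 16.4% (16.1 to 16.6) of that cluster, which overlap. The Mirlet7e locus held 10.2% (10.03 to 10.39) in replicate 2 and 8.03% (7.86 to 8.20) in replicate 1, a difference beyond counting error.

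The ratio of the miR-99-type to the miR-125-type gene of a cluster was close between the pools for Mir99a and Mir99b, and less so for Mir100. The ratios over a Mir125b gene leave out reads of miR-125b-5p and so do not compare the mature products. Mir99a over Mir125b-2 was 6.54 on the log2 scale in replicate 2 (6.47 to 6.60) and 6.58 in replicate 1 (6.51 to 6.65), overlapping intervals. Mir99b over Mir125a was 2.18 (2.15 to 2.20) and 2.21 (2.18 to 2.23), also overlapping. Mir100 over Mir125b-1 was 3.70 (3.62 to 3.77) and 3.46 (3.41 to 3.52), which did not overlap. The SD over libraries of these 3 ratios was 0.03, 0.02 and 0.17.

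Ratios between paralogs of different clusters spread more when a chromosome 9 gene was in them. Mir99a over Mir99b was 1.18 on the log2 scale in replicate 2 and 1.00 in replicate 1 (mean 1.09 ± 0.13), and Mir125a over Mir125b-2 was 3.18 and 3.38 (3.28 ± 0.14). Mir99a over Mir100 was 3.13 and 2.34 (2.73 ± 0.56), Mir99b over Mir100 was 1.95 and 1.34 (1.65 ± 0.43), and Mir125a over Mir125b-1 was 3.47 and 2.60 (3.03 ± 0.61). Mir125b-1 over Mir125b-2 was -0.29 in replicate 2 and 0.78 in replicate 1 (0.25 ± 0.75), a turn of direction with the pool. Within the chromosome 17 cluster, Mir99b over the Mirlet7e locus was 2.85 and 3.24 (3.04 ± 0.27). With n = 2 these spreads are descriptions and were not compared by a test.

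**Figure D2:**
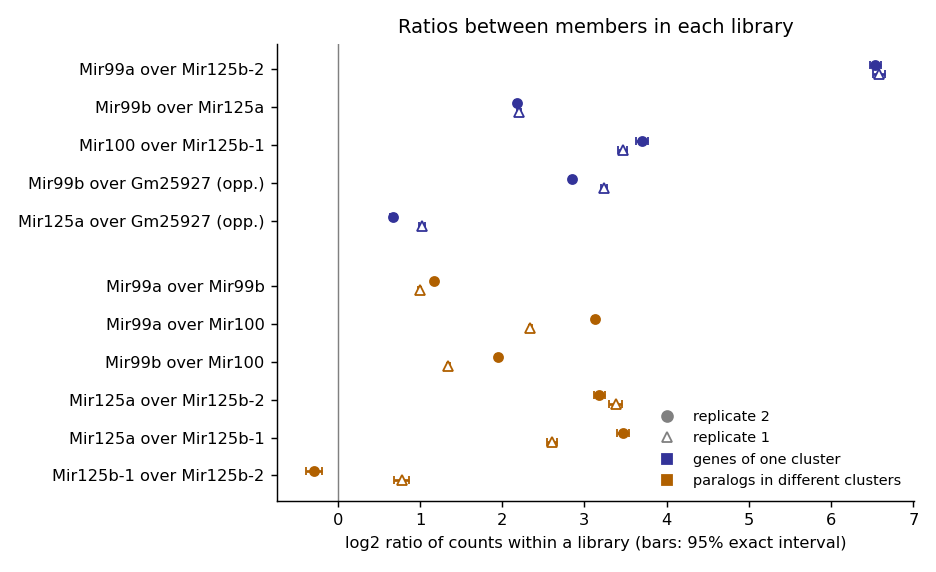
The log2 ratio of counts between pairs of members within each library, with circles for replicate 2, triangles for replicate 1 and bars for the 95% exact binomial interval (counting error only). Mir99a over Mir125b-2 and Mir99b over Mir125a nearly coincide between the libraries, while Mir125b-1 over Mir125b-2 lies at -0.29 in replicate 2 and 0.78 in replicate 1.

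Grouped by seed instead of cluster, the members' weight differed between families. The miR-99 and miR-100 seed, ACCCGUA, occurred in 3 genes of the RefSeq table, all of them members, which summed to 56774 CPM in replicate 2 and 60149 CPM in replicate 1 (58461 ± 2387). Mir99a gave 61.5% ± 3.79 of this, Mir99b 29.0% ± 0.775 and Mir100 9.49% ± 3.02.

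The miR-125 seed, CCCUGAG, occurred in 6 genes, which summed to 42404 CPM in replicate 2 and 24194 CPM in replicate 1. Mir351, an X-linked gene outside the 3 clusters, gave 89.9% of these counts in replicate 2 and 80.0% in replicate 1. Mir125a gave 8.41% and 15.9%, Mir125b-1 0.759% and 2.62%, and Mir125b-2 0.926% and 1.53%, while Mir6367 and Mir6394 had no count. These are shares of assigned reads, both arms of a hairpin together, and do not measure the seed itself. Reads of miR-125b-5p, the arm of the Mir125b genes with this seed, were not assigned to either gene. The shares of the Mir125b genes are therefore lower limits, and those of Mir351 and Mir125a would fall with such reads included. The mature form of Mir351 with this seed shares its opening bases with the members.
miR-351-5p (Mir351): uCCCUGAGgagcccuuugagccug

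The let-7 seed, GAGGUAG, occurred in 14 genes, 13 of them in the RefSeq table and Mirlet7a-2 added because its annotated hairpin holds a mature sequence of that table exactly. Of these 13 could be counted, with the Mirlet7e locus read opposite to Gm25927. They summed to 19966 CPM in replicate 2 and 10340 CPM in replicate 1. The Mirlet7e locus gave 11.2% of these in replicate 2 and 18.2% in replicate 1. Mirlet7g gave 42.0% and 45.5%, and Mirlet7i 35.8% and 27.1%. The Mirlet7e locus held the third highest count of the family in each library. The family total omits reads of let-7 sequences with exact copies, so these shares describe assigned reads.

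**Figure D3:**
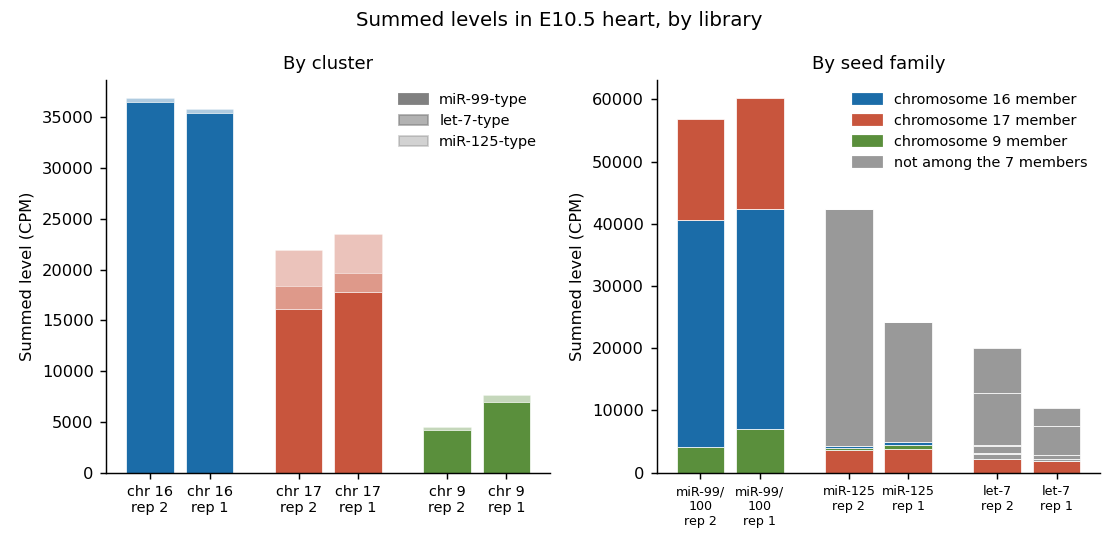
Summed CPM per library, as stacked bars starting at 0, by cluster (left, shaded by kind of gene) and by seed family (right, members coloured by cluster, other genes in grey). The chromosome 16 bars reach 36850 CPM in replicate 2 and 35767 CPM in replicate 1, nearly all Mir99a, and the miR-125 bars are mostly the grey Mir351. Bars hold assigned reads only, without those of miR-125b-5p.

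Between the pools, chromosome 9 members were lower in replicate 2 and the other members were higher after the scaling used here, Mir99b and Mir125a turning direction under total counts. Library sizes were scaled by TMM, which trims extreme genes, and each gene was tested by an exact two-sided binomial test with Benjamini-Hochberg adjustment over all 425 tested rows. This asks whether 2 libraries differ beyond counting error and compares no conditions. All 7 members passed, against 61.6% of all tested rows, so passing is common here. Of the members 5 were higher in replicate 2 (30.6% of all rows were) and 2 were lower (31.1%). The members' median absolute log2 difference was 0.36, beside 0.47 over all rows, and edgeR's common biological coefficient of variation between the libraries was 37.1%.

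Mir100 was lower in replicate 2 by a log2 difference of -0.47 (95% exact interval -0.50 to -0.44, adjusted exact p = 6.58e-278). Mir125b-1 was lower by -0.70 (-0.79 to -0.61, adjusted exact p = 4.57e-53). With total counts as the scaling, which shifts the median of all rows by -0.27, they were -0.74 and -0.98 and passed again. The Hox-cluster, epithelial and liver marker sums given above were also lower in replicate 2. Called lower were 5 of 5 tested Hox-cluster, 7 of 7 epithelial and 1 of 1 liver genes, beside 31.1% of all rows. Under total counts these marker genes were called lower again, beside 46.1% of all rows. The part of such tissue in the Mir100 and Mir125b-1 differences was not tested.

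On chromosome 16, Mir99a was higher in replicate 2 by 0.32 (0.31 to 0.33) and Mir125b-2 by 0.36 (0.26 to 0.46, adjusted exact p = 9.07e-13). Under total counts Mir99a was still called higher at 0.04, and Mir125b-2 did not pass at 0.09 (adjusted exact p = 0.119). On chromosome 17, Mir99b was higher at 0.14 (0.12 to 0.15) and Mir125a at 0.17 (0.13 to 0.20), but under total counts each was lower, at -0.14 and -0.11. The Mirlet7e locus was higher at 0.52 (0.48 to 0.57, adjusted exact p = 8.92e-133) and at 0.25 under total counts. Under total counts 2 members were higher (15.8% of all rows) and 4 lower (46.1%), with 61.9% of all rows past the test.

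**Figure D4:**
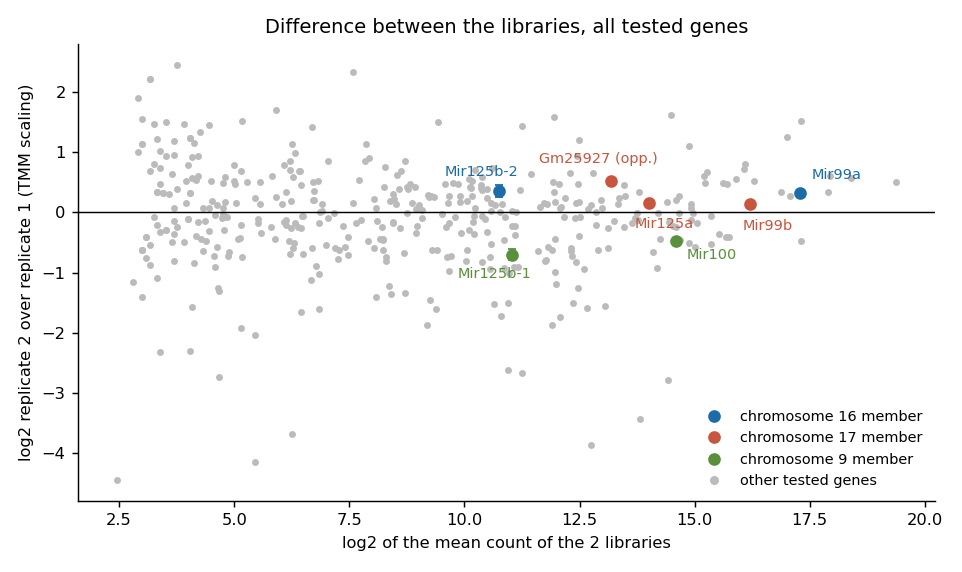
Log2 difference of replicate 2 over replicate 1 after TMM scaling against the log2 of the mean count, for the 425 tested rows, with members coloured by cluster and bars for the 95% exact interval. The chromosome 9 members Mir100 and Mir125b-1 lie at -0.47 and -0.70, and the chromosome 16 and 17 members between 0.14 and 0.52.

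The miR-10, miR-99 and miR-100 family and the miR-125 family were counted in the same comparison. Of the genes counted here, Mir10a, Mir10b and Mir351 lie outside the clusters, and the others are members whose calls are given above. Of the miR-10, miR-99 and miR-100 family, 2 of 5 genes were higher in replicate 2 and 3 lower, beside 30.6% and 31.1% of all rows. Under total counts 1 was higher and 4 were lower, beside 15.8% and 46.1% of all rows. The lower genes were Mir100, Mir10a at -2.78 and Mir10b at -3.44. Mir10a and Mir10b lie in Hox clusters and carry the seed ACCCUGU in place of ACCCGUA. Mir10a had 1114 CPM in replicate 2 and 9250 CPM in replicate 1, and Mir10b 482 and 6321 CPM. Of the miR-125 family with Mir351, 3 of 4 genes were higher and 1 lower, beside 30.6% and 31.1% of all rows, with Mir351 at 1.25. Under total counts 1 of the 4 was higher and 2 were lower, beside 15.8% and 46.1% of all rows.

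Of 9 tested let-7 and miR-98 genes with their own rows, all 9 were higher in replicate 2, beside 30.6% of all rows, with a median of 1.14 and a range of 0.69 for Mirlet7f-2 to 2.34 for Mirlet7b. Under total counts 8 of the 9 were called higher, beside 15.8% of all rows, and Mirlet7a-1 did not pass at 0.51. The 3 genes listed as heart muscle markers, 2 as smooth muscle markers and 1 as an endothelial marker were also called higher in replicate 2 with each scaling. Whether the smooth muscle genes, Mir143 and Mir145a, mark that tissue alone in this heart was not tested. Of 3 red blood cell marker genes 2 were called higher with TMM, and 1 higher and 1 lower under total counts. The part of such tissues in the let-7 differences was not tested. Mirlet7g, with 8382 CPM in replicate 2 and 4705 CPM in replicate 1, was at 1.11, and Mirlet7i, with 7153 and 2798 CPM, at 1.63. The let-7 genes of the chromosome 16 and 9 clusters were at 0.85 (Mirlet7c-1) and 1.14 (Mirlet7a-2). The Mirlet7e locus, at 0.52, lay below the range of these 9 genes and above its cluster partners Mir99b and Mir125a. Under total counts the order was the same, with 0.25 for the Mirlet7e locus and 0.41 for the lowest of the 9.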

How the data were processed

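The authors deposited read counts per gene for each library, with no normalization, made from the library's own alignment to mm10 with GENCODE M4, per the deposited README files; no aligner or counter is named there. Rows naming no gene were left out: unmapped reads (25.5% in replicate 2, 26.3% in replicate 1), multiply mapped reads and reads outside listed genes (7.41%, 8.98%). The columns carry no names; the own-strand column was taken as the one with fewer reads outside listed genes, against 48.9% in replicate 2 and 48.5% in replicate 1 in the other. Own-strand counts were used, and the opposite-strand count for Gm25927. Symbols and positions came from GENCODE M21 (GRCm38), which matched 1894 of 1973 identifiers. Sequences came from RefSeq tables.

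Rows reaching 10 counts in either library entered the exact binomial test (scipy 1.17.1, threshold 0.05) after TMM scaling in edgeR 4.0.16. Log2 ratios add 0.5 counts. The labels call the libraries biological replicates of separate pools. Alternatives were DESeq2 1.42.0 size factors, total counts, both strands, no filter, other pseudocounts and denominators, and leaving out a replicate. Named genes are all members, their let-7 partners, Mir10a, Mir10b, let-7 genes of at least 1000 CPM, level neighbours and heart markers; Mir351, Mirlet7a-1, Mirlet7b and Mirlet7f-2 were named after their values were seen. The members and lists were chosen with earlier results of these data known.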

Additional observations from a re-analysis of the deposited data

How the results depend on the processing

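The order of the 3 clusters and the sign of their ratios held under each alternative run, which was largely fixed in advance. Another denominator scales all 3 clusters of a library alike and cannot change their order. A run without a replicate repeats the values of the other library. No run added the unassigned reads of miR-125b-5p, let-7a-5p and let-7c-5p, so the order with those reads was not tested. Leaving out a replicate gave 35767 to 36850 CPM for the chromosome 16 cluster, 21944 to 23488 for chromosome 17 and 4500 to 7628 for chromosome 9. The cluster log2 ratios then ran 0.61 to 0.75 (16 over 17), 2.23 to 3.03 (16 over 9) and 1.62 to 2.29 (17 over 9). Counts over both strands with their total gave 34668 CPM for chromosome 16, and leaving the most abundant gene out of the denominator gave 42798 CPM for chromosome 16 and 26758 for chromosome 17, by construction of the denominator. With total counts in place of TMM, 2 members were higher and 4 lower, against 5 and 2 with TMM. Of all rows 130 were higher and 132 lower with TMM, and 67 and 196 with total counts. Mir99b (-0.14) and Mir125a (-0.11) turned direction there, and Mir125b-1 over Mir125b-2 ran -0.29 to 0.78 with a replicate left out. The denominators by TMM were added after seeing the data. The replicate comparison has no value with a library left out. No paired analysis was possible because the labels give 1 group. Depth did not limit the members, whose lowest count was 1539, but reads with exact copies did.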

Other observations

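Counts opposite to listed genes were concentrated in few rows. They made up 4.58% of gene counts over both strands in replicate 2 and 4.46% in replicate 1. Gm25927 held the third highest such count in replicate 2 and ranked 8th in replicate 1. At least 1000 opposite-strand counts were found for 9 genes in each library, and 7 of these had 0 counts on their own strand, Gm25927 among them. Gm25927 held 4.67% of all opposite-strand counts in replicate 2 and 4.04% in replicate 1. Close in level to the Mirlet7e locus were Mir425, with 2309 CPM in replicate 2 and 2357 CPM in replicate 1, and Mir188, with 1744 and 1833 CPM.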
